A study of Homo sapiens with 6 samples.

Results

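The comparison described here sets RPE-1 cells collected 4 h after release from a thymidine block (4h_DMSO) against cells still in the block (Arrested). It takes 6 of the 17 libraries of the study, 3 per condition, and pairs them by the experiment letters A, B and C that the columns of the count table carry. RPE-1 cells are human cells of the retinal pigment epithelium that telomerase has made immortal. Arrested cells had spent 24 h in 2 mM thymidine and were not released. The 4h_DMSO cells had the same block, 3 washes into normal growth medium, and the solvent DMSO for the last 3 h, starting 1 h after the wash. Release, washes, fresh medium and DMSO therefore change together and cannot be told apart. The 3 libraries of 6h_DMSO (the same release, collected at 6 h, with DMSO for 5 h) and the 3 of cycling cells, which were asynchronous, serve to place single genes. The remaining libraries came from cells released for 4 h or 6 h with the ATR inhibitor AZ20 (2 µM, for 3 h or 5 h) in place of DMSO alone. They are not compared here, but they entered the fit, in which all conditions share 1 estimate of the spread. Per the series' design text there were 3 independent experiments, and the 4 h collection stands for late S phase.

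Excess thymidine raises dTTP, which shuts down the reduction of CDP by ribonucleotide reductase, so that cells run short of dCTP and replication stalls near the start of S phase. After the wash cells replicate their DNA, and genes for G2 and mitosis, driven by B-MYB and FOXM1, begin to be transcribed before replication ends. Medium change also acts on cultured cells by itself: serum factors activate immediate early genes within minutes, and the actin-regulated cofactor MRTF with its partner SRF, as well as YAP with TEAD, drive cytoskeletal and matrix genes over hours.

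Totals of the 6 libraries ran from 1758747 to 2188389 counts. On a principal component analysis of the 6, the first component (39.1% of variance) set experiment B apart, and the second (21.7%) parted Arrested (scores 22.2 to 27.7) from 4h_DMSO (-35 to -14.5). A single uncharacterised ID, ENSG00000226958, took 8.25% and 8.89% of the counts in the libraries of B and 2.06% to 4.48% in the others. Of 15 retinal pigment epithelium markers, 5 passed the filter on low counts, and TTR and RLBP1 were at 0 in all 6 libraries. RPE65 had at most 2 counts in a library. The summed level of these markers was 13600 to 15400 CPM (counts scaled to 1000000 per library) in Arrested and 12300 to 14400 in 4h_DMSO. Nearly all of it lay on BEST1, whose exons overlap the ferritin gene FTH1. PMEL had 557 to 796 counts in a library, SERPINF1 29 to 57, TYRP1 7 to 23, MITF 3 to 16 and OTX2 3 to 7. TYR, DCT, LRAT, RDH5, RGR and MERTK had at most 5. The list is thus mixed, and it does not settle the label. Of 7 markers of epithelium and of such cultures, 2 were higher after release, and they summed to 4220 to 4880 CPM and 4720 to 6600 CPM. Of 2 fibroblast markers tested 1 was higher, the collagen gene COL1A1, with 17, 56 and 18 counts in Arrested and 28, 77 and 72 in 4h_DMSO (adjusted p = 0.0247, and 0.819 without the block), a call that ended in 6 of 9 refits. Markers of fibroblasts, immune cells, endothelium, blood, neurons and photoreceptors each summed to at most 64.3 CPM in any library. RNA was taken from whole cultures, so more cells in a phase and more RNA per cell cannot be told apart.

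The libraries were made with a stranded kit, and most counts lie on the opposite strand of abundant genes. Among 2009 coding genes paired with antisense features at 100 counts or more, 1492 (74.3%) had more on the antisense feature, by a median ratio of 5.64. A feature whose exons overlap a gene on the other strand is therefore given with that partner, and its counts are uncertain as to the gene. Features with no such overlap held 14.6% of the counts of the 17 libraries, and overlapped ones 77.9%. The strand setting is not given, so how much of a gene's reads a feature without overlap holds is not known. Fold changes are log2 values for 4h_DMSO against Arrested with their standard error, and p-values are adjusted over all 13510 features tested. For called features named with values, the fit was repeated 9 times, leaving out 1 of the 6 libraries or 1 whole experiment. Where such a call ended, the number of such refits or the experiment is given. Calls named without values carry no count of refits. The value without the experiment as a block is given where it ends the call, at 6 h and against cycling cells too.

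At 4 h of release, 304 features (2.25% of those tested) were higher than in arrest and 340 (2.52%) were lower. Of these, 93 rose and 74 fell by at least 2-fold, and 298 and 336 had the same sign in all 3 experiments. The 3 libraries of a condition did not overlap those of the other for 243 of the features that rose and 233 of those that fell, against 7.19% and 6.85% of all features. Without the block the counts were 56 higher and 44 lower, all of them among the 644. Calls on overlapped features were 180 higher and 289 lower of 7086, and those on features with no such overlap were 118 and 39 of 6208, or 58 and 38 when these were fitted alone. Leaving out experiment C changed the counts to 159 higher and 101 lower, and leaving out A to 141 and 157. Without the Arrested library of C there were 196 and 158, without that of A 209 lower, and without the 4h_DMSO libraries of C and B 149 and 193 lower. The authors' deposited table holds 105 features higher and 83 lower at 4 h of the 5957 with an adjusted p. Of these, 104 and 83 are also called here, 34.2% and 24.4% of the 304 and 340, from the same libraries. The direction of the authors' fold changes was set by their correlation with those here.

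**Figure D1:**
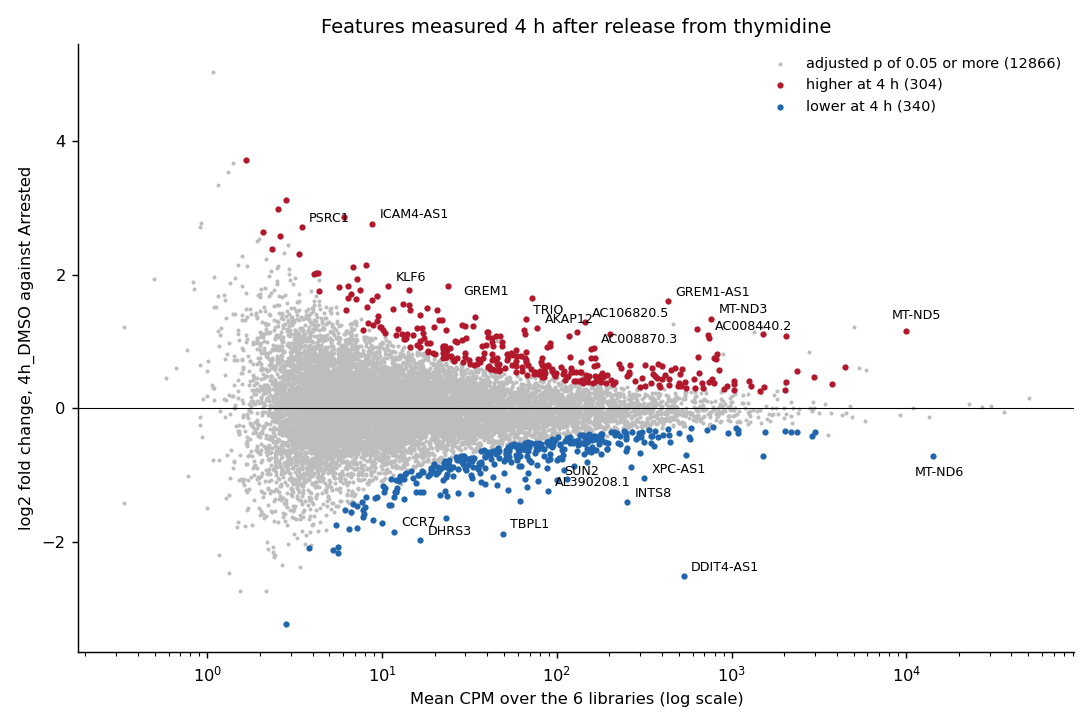
Each point is 1 of 13510 features, with its mean CPM over the 6 libraries (log scale) on the x axis and its log2 fold change, 4h_DMSO against Arrested, on the y axis. Red points (304) were higher and blue points (340) lower at an adjusted p under 0.05, and DDIT4-AS1 and MT-ND5 stand out at high levels.

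The gene lists were put together with earlier results of these data known, so their counts describe the lists and do not test them. The list with the most rises held SRF, MRTF and actin cytoskeleton genes. Of its 37 measured genes, 18 rose, 0 fell and 36 had a positive fold change, with a median of 0.41 against 0 over all features. Of 21 features opposite to its genes, 11 rose and 1 fell. TRIO, AKAP12 and MYADM were placed in the list because these data had shown them. With the block left out 6 of the 37 were called, and 6 also without experiment C. The feature opposite that fell was FAS, opposite ACTA2. SRF itself had 25.5, 23.9 and 10.7 CPM and then 29.9, 42.1 and 28.6 (0.76 ± 0.24, adjusted p = 0.0378, and 0.262 without the block), a call that ended in 6 of 9 refits.

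Promoters are shown because SRF binds the CArG box. They were ranked by the adjusted p of called features in the lists with most rises and most falls, and for MYADM, XPC, MICAL2 and ZYX that feature is the one opposite the gene. They run from 250 bases before to 50 after the start, on GRCh38.p14, in the RefSeq promoter table, 5′ to 3′ on the gene's strand. Where a gene has several starts, one with a CArG box was taken if there was any. Capitals mark matches on either strand to 7 motifs, the CArG box among them. The others are the CHR element, spelt TTTGAA with a variant spelt TTCGAA, the box CCAAT, the TEAD site GGAATG, the AP-1 site TGAGTCA with its variant TGACTCA, the CRE site TGACGTCA, and the E2F site in the forms TTTCCCGC as well as TTTGGCGC as well as TTTCGCGC as well as TTTGCCGC.
MYADM, chr19:53869141-53869440 (+ strand): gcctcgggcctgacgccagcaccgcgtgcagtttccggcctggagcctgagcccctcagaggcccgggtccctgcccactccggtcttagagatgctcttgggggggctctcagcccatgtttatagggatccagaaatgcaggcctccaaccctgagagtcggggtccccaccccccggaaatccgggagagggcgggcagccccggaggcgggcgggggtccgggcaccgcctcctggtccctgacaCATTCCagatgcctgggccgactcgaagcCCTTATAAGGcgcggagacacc
AKAP12, chr6:151239717-151240016 (+ strand): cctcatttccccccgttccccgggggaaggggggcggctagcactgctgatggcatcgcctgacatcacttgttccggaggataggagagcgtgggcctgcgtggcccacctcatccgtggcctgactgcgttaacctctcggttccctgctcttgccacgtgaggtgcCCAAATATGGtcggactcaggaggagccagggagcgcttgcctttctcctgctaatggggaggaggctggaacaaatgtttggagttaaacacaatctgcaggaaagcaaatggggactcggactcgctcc
TRIO, chr5:14143092-14143391 (+ strand): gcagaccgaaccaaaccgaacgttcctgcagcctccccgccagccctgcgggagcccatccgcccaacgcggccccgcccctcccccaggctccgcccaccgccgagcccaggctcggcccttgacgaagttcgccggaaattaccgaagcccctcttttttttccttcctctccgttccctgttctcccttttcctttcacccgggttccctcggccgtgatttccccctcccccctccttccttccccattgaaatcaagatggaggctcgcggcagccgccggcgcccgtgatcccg
XPC, chr3:14178552-14178851 (- strand): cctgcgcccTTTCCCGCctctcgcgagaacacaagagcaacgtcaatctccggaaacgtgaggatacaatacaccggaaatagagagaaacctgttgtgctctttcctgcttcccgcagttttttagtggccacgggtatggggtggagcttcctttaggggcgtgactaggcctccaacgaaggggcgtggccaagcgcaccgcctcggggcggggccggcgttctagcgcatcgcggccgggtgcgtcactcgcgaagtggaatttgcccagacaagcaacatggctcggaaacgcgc
The MYADM window holds a CArG box that begins 29 bases into the transcript and a TEAD match that spans the start. The AKAP12 window holds a CArG box whose first base is at -81 from the start. The windows of TRIO and ZYX hold none of the 7 motifs, that of MICAL2 a CHR match, and that of XPC an E2F match. Of the 66 starts listed for 34 genes of the SRF and actin list, 13 (19.7%) hold a CArG box, against 1.29% of all 35116 promoters in the table. The genes are ACTG1, ACTN1, AKAP12, CAPN2, CNN2, FHL2, FILIP1L, FLNA, MYADM, TGFB1I1 and TPM4. TEAD matches were in 21.2% of the 66 and 14% of all promoters. The list was chosen partly as known SRF targets, and a match is not a site in use.

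AC008440.2, which lies opposite MYADM, a membrane protein of the myeloid-associated family, had 555, 401 and 442 CPM in Arrested A, B and C. It had 951, 970 and 1057 CPM in 4h_DMSO. Every 4h_DMSO library lay above every Arrested one, and the log2 fold change was 1.09 ± 0.09 (adjusted p = 5.18e-21). MYADM itself, at 6.61 to 8.45 CPM in Arrested, rose by 1.47 ± 0.30 (adjusted p = 0.000234, and 0.0947 without experiment C). TRIO, a guanine nucleotide exchange factor with no feature opposite, had 38.6, 40.3 and 33.5 CPM in Arrested and 65.9, 113 and 107 in 4h_DMSO. Its groups did not overlap, and experiment A moved least (1.34 ± 0.16, adjusted p = 3.73e-11). AKAP12, a scaffold for protein kinases, had 46.9, 51.7 and 41.7 CPM in Arrested and 113, 88.2 and 122 in 4h_DMSO (1.20 ± 0.15, adjusted p = 1.51e-10). All 3 of AC008440.2, TRIO and AKAP12 kept the call in the 9 refits.

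Features of structural parts of the actin cytoskeleton rose as well. ZYX, the focal adhesion protein zyxin, had 28.4 to 47.2 CPM in Arrested and 77.8 to 108 in 4h_DMSO (1.18 ± 0.17, adjusted p = 1.12e-07). EPHA1, whose exons overlap it, had 435 to 711 CPM in Arrested and 810 to 1208 in 4h_DMSO (0.73 ± 0.09, adjusted p = 3.73e-11, and 0.111 without the block). AC079329.1, opposite the actin oxidase MICAL2, had 489, 470 and 464 CPM in Arrested and 817, 763 and 845 in 4h_DMSO, and rose by 0.77 ± 0.09 (adjusted p = 2.7e-11). AC079328.2, opposite the tropomyosin gene TPM1, rose by 0.47 ± 0.08 (adjusted p = 3.76e-06, and 0.25 without the block). AP3M1, opposite VCL (vinculin, which links integrins to actin), rose by 0.73 ± 0.16 (adjusted p = 0.000438). In ZYX, AC079329.1 and AP3M1 the groups did not overlap, nor did they in AC079328.2, which ran from 2357 to 2578 CPM in Arrested and from 3025 to 4022 in 4h_DMSO. The call on AP3M1 ended without experiment C (adjusted p = 0.068). Further own features that rose were ACTB, ACTG1, ACTN1, ACTN4, MYH9, FLNA and ITGA5, none of which was called without the block.

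Of 29 measured YAP and TEAD targets 7 rose and 0 fell, with a median of 0.40, and 3 of 9 features opposite rose. Without experiment A 4 of the 29 were called. AL133346.1, opposite CCN2, the matrix protein once called CTGF, had 644, 609 and 496 CPM in Arrested and 1018, 888 and 1085 in 4h_DMSO. CCN2 itself had 65.8, 77.6 and 40.6 CPM and then 94.8, 141 and 128 CPM. Neither overlapped between conditions, and the log2 fold changes were 0.76 ± 0.10 and 0.98 ± 0.18 (adjusted p = 1.48e-09 and 0.000288). ANKRD1, a cardiac ankyrin repeat protein widely used as a YAP readout, had 98.6 to 121 CPM in Arrested and 178 to 251 in 4h_DMSO (0.89 ± 0.15, adjusted p = 0.000134). GADD45B, a stress-induced regulator of MAP kinase signalling, rose by 1.40 ± 0.30 (adjusted p = 0.000438). THBS1, a matrix glycoprotein and TEAD target whose exons overlap FSIP1 and THBS1-AS1, had 442 to 838 CPM in Arrested and 785 to 1338 in 4h_DMSO and was not called (0.81 ± 0.24, adjusted p = 0.114).

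GREM1, a secreted antagonist of BMP ligands, gave one of the clearest rises. GREM1-AS1, which overlaps it, had 233, 204 and 202 CPM in Arrested and 789, 582 and 580 in 4h_DMSO. GREM1 had 40.3, 33.3 and 31 CPM and then 114, 99.6 and 114 CPM. Every 4h_DMSO library lay far above the Arrested ones, with fold changes of 1.60 ± 0.10 for GREM1-AS1 and 1.65 ± 0.16 for GREM1 (adjusted p = 2.74e-28 and 5.82e-16), and 9 of 9 refits kept each. In cycling cells GREM1-AS1 was at 132 to 169 CPM, below the arrested cells (0.48 on the log2 scale, adjusted p = 0.000962, and 0.346 without the block). By 6 h it had come down to 413 to 440 CPM, a fall of 0.60 against 4 h (adjusted p = 8.09e-06, and 0.459 without the block). Of 27 BMP and TGF-beta genes measured, GREM1 among them because these data had shown it, 4 rose and 0 fell, with a median of 0.24, and 1 rose without the 4h_DMSO library of B. Among the others were the activin subunit gene INHBA (0.61 ± 0.17, adjusted p = 0.011, and 0.329 without the block, ended in 4 refits) and the receptor gene BMPR2 (1.05 ± 0.31, adjusted p = 0.022, and 0.103 without the block, ended in 7).

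Immediate early genes are transcribed without new protein synthesis and usually fall back within hours. Of 35 measured, 3 rose and 0 fell, with a median of 0.28, and of 9 features opposite 4 rose and 1 fell. Without experiment C 1 of the 35 was called. NR4A1AS, opposite the nuclear receptor gene NR4A1, had 19, 14.9 and 22.4 CPM in Arrested and 55.9, 30.2 and 62.5 in 4h_DMSO (1.37 ± 0.21, adjusted p = 5.34e-07). At 6 h it was back at 17.6 to 26.9 CPM, lower than at 4 h by 1.11 (adjusted p = 0.000117, and 0.251 without the block), a range that overlaps Arrested. The Krüppel-like factor KLF2 had 9.14 to 11.9 CPM in Arrested and 23.5 to 40.9 in 4h_DMSO (1.46 ± 0.26, adjusted p = 2.16e-05, and 0.0508 without experiment C). KLF6, a relative of KLF2, rose most in experiment C, from 6.53, 5.47 and 2.03 CPM to 11.5, 11.4 and 28.1 (1.83 ± 0.37, adjusted p = 0.000288), which became 0.398 without C and 0.0541 without the block, and the call ended in 3 refits. AC011446.2, opposite IER2, rose by 0.60 ± 0.10 (adjusted p = 8.06e-07, and 0.117 without the block). PHLDA1-AS1, opposite the gene PHLDA1, fell by 0.36 ± 0.08 (adjusted p = 0.00167), a call that ended without the block (0.6) and without experiment C (0.215), and in 2 refits in all. FOS was below the filter on low counts.

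Inflammatory genes were few. None of 15 own features was called with edgeR or DESeq2 (2 fold changes were above and 0 below 0 with an unadjusted p under 0.05), and 3 of 8 features opposite rose. ICAM4-AS1, which overlaps the adhesion molecule genes ICAM1 and ICAM4, had 0, 1.49 and 5.08 CPM in Arrested and 10.5, 18.8 and 16.7 in 4h_DMSO. These are 0, 3 and 10 counts against 21, 38 and 34, and the groups did not overlap (2.76 ± 0.44, adjusted p = 1.69e-06). ICAM1 and CXCL8 were not tested. LIF-AS2, opposite the cytokine gene LIF, had 118 to 171 CPM in Arrested and 183 to 236 in 4h_DMSO (0.53 ± 0.12, adjusted p = 0.000983, and 0.239 without the block), and fell at 6 h by 0.76 against 4 h (adjusted p = 1.59e-06, and 0.115 without the block). LIF itself had 48.6, 46.2 and 37.1 CPM in Arrested and 28.9, 35.2 and 48.2 in 4h_DMSO and was not called (adjusted p = 0.636).

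**Figure D2:**
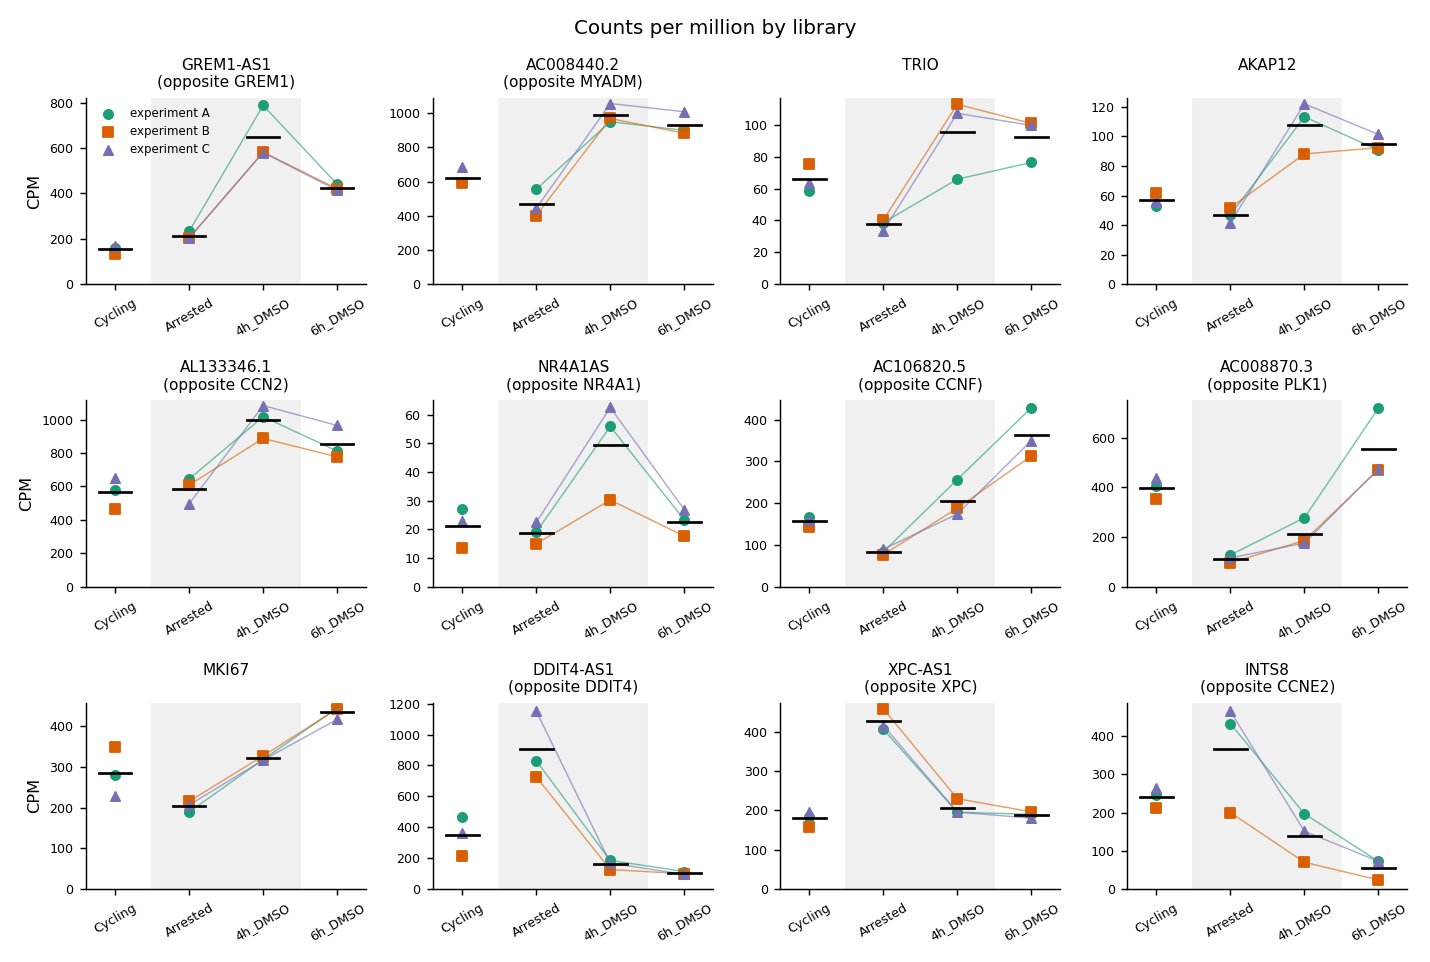
Each panel shows the CPM of 1 feature in every library of cycling cells, Arrested, 4h_DMSO and 6h_DMSO, with a colour and marker per experiment, lines joining the released series and black bars for the mean of 3 libraries. The shaded pair is the comparison described. GREM1-AS1 and NR4A1AS peaked at 4 h, AC106820.5, AC008870.3 and MKI67 were higher still at 6 h, and XPC-AS1 fell to 195 to 230 CPM, a range that overlaps that of cycling cells.

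Some genes for G2 and mitosis were higher at 4 h, and most were not called. Of 39 kinases, cyclins and switches measured, 6 rose and 0 fell, with a median of 0.10, and 5 of 13 features opposite rose. Of 65 kinetochore, spindle and cytokinesis genes 8 rose and 1 fell, with a median of 0.19, and 6 of 36 features opposite rose and 1 fell. The own features called higher in these lists numbered 3 and 2 without experiment A, and 2 and 3 without the block. AC106820.5, opposite the cyclin F gene CCNF, a partner of the SCF ubiquitin ligase, had 83.1, 76.6 and 89.4 CPM in Arrested and 257, 188 and 174 in 4h_DMSO (1.29 ± 0.12, adjusted p = 4.52e-18). DIS3, whose exons overlap BORA, an activator of the kinase PLK1, had 84.8, 73.1 and 85.4 CPM and then 238, 150 and 156 (1.14 ± 0.13, adjusted p = 3.62e-12). It counts in both lists, while BORA itself had 20.4 to 29.5 CPM and then 18.8 to 28.9 (adjusted p = 0.977). AC008870.3, opposite PLK1, the kinase that drives mitotic entry, had 127, 95.9 and 115 CPM and then 277, 185 and 175 (0.90 ± 0.12, adjusted p = 5.41e-09). The 3 features were highest at 4 h in experiment A, none of them overlapped between conditions, and all 3 kept the call in 9 of 9 refits.

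Several mitotic genes with no overlapping feature on the other strand rose too. MKI67, the proliferation antigen Ki-67, had 189, 215 and 206 CPM in Arrested and 318, 327 and 316 in 4h_DMSO (0.66 ± 0.10, adjusted p = 5.65e-07). The ubiquitin-conjugating enzyme gene UBE2S rose from 47.5, 56.2 and 39.6 CPM to 94.8, 84.2 and 78.8 (0.85 ± 0.15, adjusted p = 6.14e-06). PSRC1, a spindle protein, had 0, 3 and 2 counts in Arrested and 10, 18 and 9 in 4h_DMSO (2.71 ± 0.62, adjusted p = 0.00136). CENPF, a late G2 kinetochore protein, rose by 0.54 ± 0.15 (adjusted p = 0.0181), and CDC20, the activator of the anaphase-promoting complex, by 1.12 ± 0.28 (adjusted p = 0.00572). Their calls ended in 6 and 4 of 9 refits and, at 0.18 and 0.0989, without the block. AC106820.3, an antisense feature with no exon overlap that would tie it to a gene, had 2, 2 and 4 counts in Arrested and 19, 29 and 17 in 4h_DMSO (2.87 ± 0.49, adjusted p = 4.74e-06). The cyclin B1 gene CCNB1 had 1.52 to 2.98 CPM in Arrested and 3.45 to 5.95 in 4h_DMSO and was not called (0.94 ± 0.51, adjusted p = 0.371). It had only 3 to 12 counts in a library. TOP2A, the decatenating topoisomerase, had 50.8 to 64.1 CPM in Arrested and 57.6 to 61.9 in 4h_DMSO (0.10 ± 0.16, adjusted p = 0.84). GPSM2, a spindle orientation protein, fell by 0.51 ± 0.10 (adjusted p = 0.000132, and 0.15 without the block). CLCC1, whose exons overlap GPSM2, moved the other way (0.50 ± 0.12, adjusted p = 0.00166, but 0.243 without the block and 0.381 without experiment A, ended in 2 refits).

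Some mitotic genes were higher again 2 h later. In 6h_DMSO against 4h_DMSO, 88 features were higher (0.651% of those tested) and 53 lower (0.392%), and without the block 9 and 2. Without experiment A they were 28 and 10. This comparison uses the same 4h_DMSO libraries, so its errors are shared with those above. Of the 39 kinases, cyclins and switches 5 rose and 0 fell, with a median of 0.41, and of the 65 kinetochore, spindle and cytokinesis genes 11 rose and 0 fell, with a median of 0.54. Without the block these were 0 and 1. Of the 6 and 8 that had risen by 4 h, 2 and 3 rose again, and of the 5 and 6 features opposite that had risen, 5 and 5 did. UBE2S and PSRC1 were not called at 6 h against 4 h (adjusted p = 0.12 and 0.298). AC008870.3 rose by a further 1.38 ± 0.11 (adjusted p = 4.26e-19), AC106820.5 by 0.82 ± 0.11 (adjusted p = 1.14e-09, and 0.0557 without the block), CLCC1 by 1.31 ± 0.11 (adjusted p = 5.15e-20) and MKI67 by 0.44 ± 0.10 (adjusted p = 0.00316, and 0.616 without the block). TOP2A, which was not called at 4 h, rose by 0.77 ± 0.15 (adjusted p = 0.000165, and 0.0808 without the block). TRIO, AKAP12 and AC008440.2 differed from 4 h by -0.04, -0.18 and -0.09, none of them called (adjusted p = 0.982, 0.784 and 0.852).

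**Figure D3:**
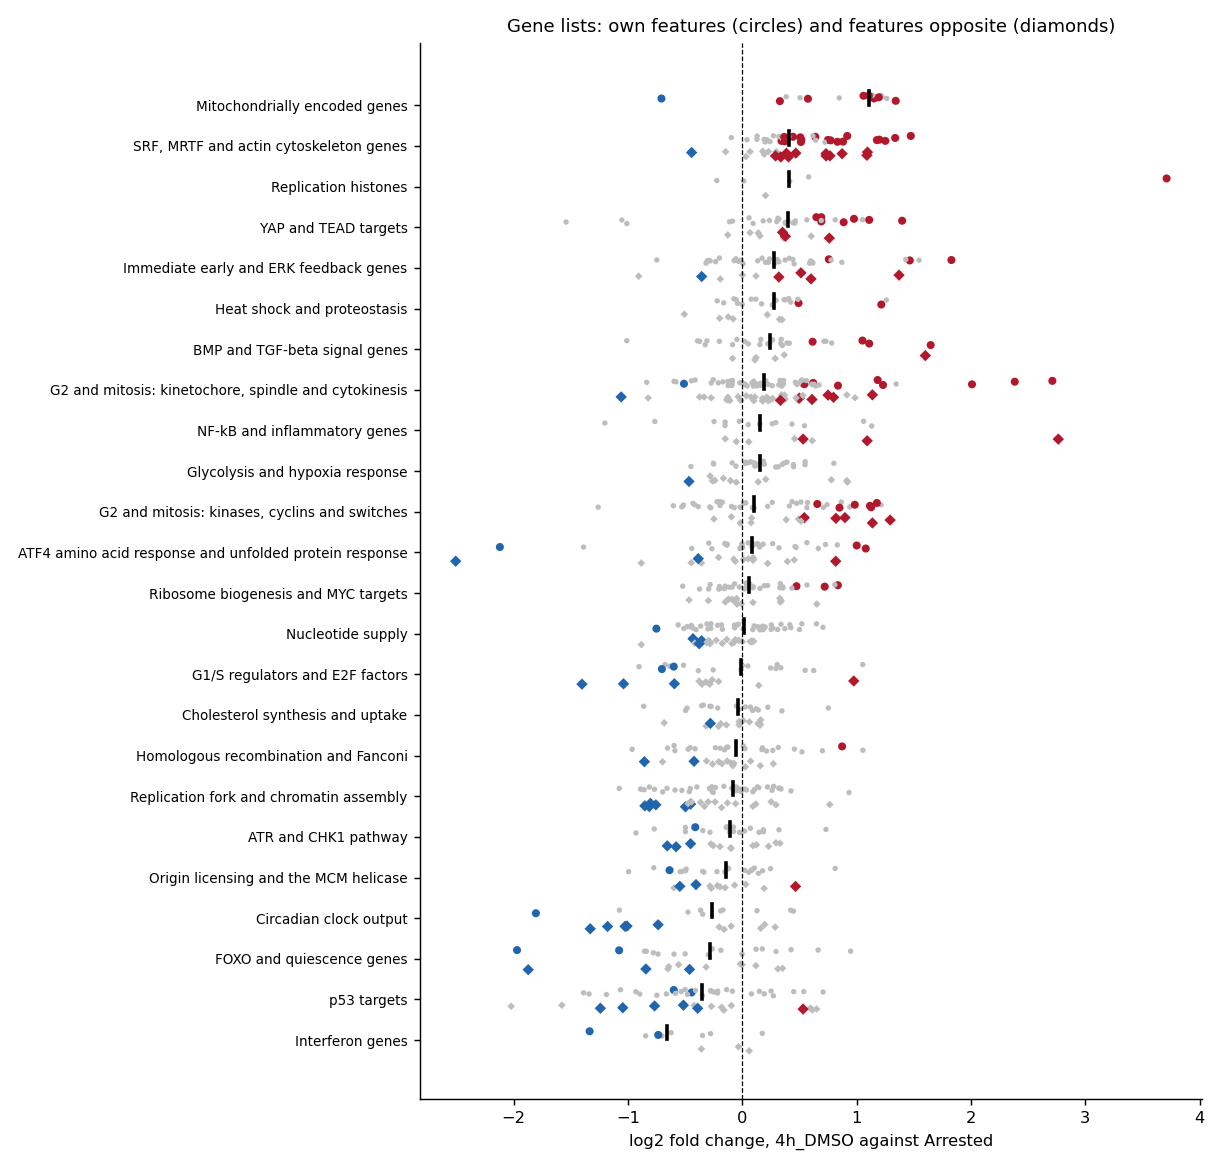
Each row is a gene list, with log2 fold change for 4h_DMSO against Arrested on the x axis, circles for the genes' own features, diamonds for features that overlap them on the other strand, and a black bar at the median of the own features. Red and blue points were called higher and lower, grey ones were not called, and the dashed line is the median of all features (0). The SRF and actin list has 18 red circles of 37, and the called points of the fork and chromatin list are all blue diamonds.

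Most genes of the G1/S transition and of replication were not called on their own features. Own features held fewer counts than antisense ones in most pairs, and several were low. PCNA had 11 to 38 counts in a library, MCM5 12 to 21 and CDC6 2 to 18, so a gene not called is not shown to be unchanged. Part of the calls lay on features opposite, with the gene uncertain. Of all features 2.52% were lower, but of the 7086 overlapped ones, to which features opposite belong, 289 were. In 1569 tested pairs of an antisense feature and a coding gene, the antisense one was called in 153, in either direction. Of 19 G1/S regulators 2 fell and 0 rose, and of 12 features opposite 3 fell and 1 rose, with 0 of the 3 called without experiment C. INTS8, an Integrator subunit gene whose exons overlap CCNE2, the cyclin E2 gene, had 432, 200 and 465 CPM in Arrested and 197, 69.8 and 151 in 4h_DMSO. Experiment B was the lowest in both conditions, and its Arrested library lay just above the highest 4h_DMSO one (-1.40 ± 0.20, adjusted p = 0.000578, but 0.343 without the block and 0.136 without experiment C). CCNE2 itself had 42.2 to 76.7 CPM in Arrested and 36.2 to 44.4 in 4h_DMSO (-0.70 ± 0.18, adjusted p = 0.00574, but 0.157 without the block), ranges that overlap, and the call ended in 5 refits. INTS8 fell by a further 1.31 ± 0.23 at 6 h (adjusted p = 0.00978, and 0.905 without the block).

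None of 44 replication fork and chromatin assembly genes was called on its own feature with edgeR or DESeq2 (1 fold change was above and 5 below 0 with an unadjusted p under 0.05), while 6 of 20 features opposite fell and 0 rose, with a median of -0.32. UBXN6, whose exons overlap the histone chaperone gene CHAF1A, had 93.7, 91.5 and 114 CPM in Arrested and 45.9, 67.4 and 52.7 in 4h_DMSO (-0.85 ± 0.15, adjusted p = 1.42e-05). HSD17B6, opposite PRIM1, the primase catalytic subunit gene, had 63.5, 59.6 and 85.9 CPM and then 54.9, 33.7 and 32.5 (-0.80 ± 0.18, adjusted p = 0.00164). Its groups did not overlap, but the call ended without the block (0.163) and without experiment C (0.315), and in 3 refits in all. FBXO11, opposite the mismatch repair gene MSH6, fell by 0.76 ± 0.14 (adjusted p = 6.22e-05, and 0.0621 without C). TONSL-AS1 (opposite TONSL), AL354864.1 (opposite CLSPN) and AC011498.3 (opposite CHAF1A) made up the 6. Without experiment A 3 of the 6 were called, and without C only UBXN6, and without the block 2 were. PCNA, the sliding clamp, had 9.65 to 18.9 CPM in Arrested and 5.42 to 10.5 in 4h_DMSO and was not called (-0.81 ± 0.37, adjusted p = 0.228).

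In the nucleotide supply list, 1 of 41 own features fell, a share near the 2.52% of all features, and 3 of 24 opposite fell, with 0 of the 3 called without experiment C. TYMSOS, opposite the thymidylate synthase gene TYMS, had 707, 559 and 701 CPM in Arrested and 623, 416 and 435 in 4h_DMSO. The groups overlapped (-0.43 ± 0.10, adjusted p = 0.000799), and the call ended without the block (0.448) and without experiment C (0.14). RRM2, the small subunit of ribonucleotide reductase, was at 35.6 to 45.1 CPM in Arrested and 30.2 to 43.9 in 4h_DMSO (-0.18 ± 0.21, adjusted p = 0.759). VRK2, opposite the Fanconi ligase gene FANCL, had 161, 139 and 187 CPM and then 98.3, 90.7 and 80.7 (-0.86 ± 0.14, adjusted p = 1.56e-06), with no overlap and the call kept in 9 of 9 refits. In origin licensing 1 of 23 own features fell, and of 12 opposite 2 fell and 1 rose. In the ATR and CHK1 pathway 1 of 21 own and 3 of 13 opposite fell, and 0 rose, with 0 of the 3 called without experiment A or without C.

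Targets of p53, the transcription factor stabilised by DNA damage and replication stress, were mostly at lower levels after release. Of 31 measured, 2 fell, 0 rose and 8 had a positive fold change (median -0.35), and of 16 features opposite 5 fell and 1 rose. Without experiment B 2 of the 5 were called. XPC-AS1, opposite the nucleotide excision repair gene XPC, had 406, 459 and 416 CPM in Arrested and 195, 230 and 196 in 4h_DMSO (-1.05 ± 0.11, adjusted p = 7.01e-15). AL390208.1, opposite SESN1, the stress sensor sestrin 1, had 109, 130 and 136 CPM and then 46.4, 79.8 and 35 (-1.24 ± 0.20, adjusted p = 7.74e-05). Both pairs of groups were apart in every library and both calls were kept in 9 of 9 refits. CDKN1A, the CDK inhibitor p21, whose exons overlap DINOL, had 51.6, 135 and 48.8 CPM in Arrested and 28, 74.3 and 48.7 in 4h_DMSO. Its values in C were alike, B was the highest in both conditions, and the call (-0.60 ± 0.19, adjusted p = 0.043) ended in 7 of 9 refits and without the block (0.774). FAS, a death receptor gene whose exons overlap ACTA2, fell by 0.44 ± 0.13 (adjusted p = 0.0306), a call that ended in 6 refits and without the block (0.411).

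The arrested level of these features was set beside cycling cells. In Arrested against cycling cells, 379 features were higher (2.81%) and 383 lower (2.83%), or 81 and 58 without the block, 226 and 155 without experiment A and 207 and 143 without B, and the comparison shares the Arrested libraries with the one above. XPC-AS1 was higher in arrest by 1.24 ± 0.11, AL390208.1 by 2.06 ± 0.22, CDKN1A by 2.46 ± 0.23 and FAS by 1.37 ± 0.14 (adjusted p = 1.87e-19, 1.17e-08, 1.5e-15 and 3.36e-13). AC008870.3 was lower by 1.83 ± 0.11 and MKI67 by 0.48 ± 0.10 (adjusted p = 4.77e-25 and 0.000462, the latter 0.181 without the block). At 4 h XPC-AS1 lay at 195 to 230 CPM and cycling cells at 158 to 197, so these ranges overlap. AL390208.1 lay at 35 to 79.8 CPM and cycling cells at 25.9 to 37.2, which overlap too. CDKN1A, at 28 to 74.3 CPM, was still above its cycling range of 8.21 to 16. FAS, at 109 to 147 CPM, was still above its cycling range of 44.3 to 78.

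Some of the larger falls lay outside the cell cycle lists. DDIT4-AS1, opposite the mTORC1 inhibitor gene DDIT4 (REDD1), a gene induced by stress and glucocorticoids, had 831, 726 and 1152 CPM in Arrested and 185, 126 and 168 in 4h_DMSO. The groups were far apart (-2.51 ± 0.26, adjusted p = 0.0003, and 0.051 without experiment C), and DDIT4 had 11.3, 3.98 and 10.7 CPM and then 2, 2.48 and 0.98 (adjusted p = 0.0458, and 0.32 without the block). The call on DDIT4 ended in 4 of the 6 refits in which it was tested. In cycling cells DDIT4-AS1 was at 216 to 463 CPM. TBPL1, opposite the glucose transporter gene SLC2A12, had 86.6, 58.7 and 86.4 CPM and then 25.5, 18.3 and 19.7 (-1.87 ± 0.20, adjusted p = 2.37e-14). DHRS3, a retinal reductase that acts on retinoids, fell from 26.1, 34.3 and 18.8 CPM to 7.49, 6.94 and 5.42 (-1.97 ± 0.31, adjusted p = 7.12e-07). SUN2, a nuclear envelope protein whose exons overlap GTPBP1, fell from 127, 124 and 158 CPM to 60.9, 71.3 and 60.6 (-1.08 ± 0.14, adjusted p = 5.57e-10). The chemokine receptor gene CCR7 fell from 11.7 to 23.9 CPM in Arrested to 4.46 to 5.49 in 4h_DMSO (-1.84 ± 0.37, adjusted p = 0.000178). All of TBPL1, DHRS3, SUN2 and CCR7 kept the call in 9 of 9 refits. In the list of FOXO and quiescence genes, in which DHRS3, SUN2 and SLC2A12 had been placed because these data had shown them, 2 of 18 own and 3 of 12 opposite fell and 0 rose. Without those genes none of its own features was called.

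Among circadian output genes the calls lay mostly on features opposite, with the gene uncertain. Of 10 measured 1 fell, of 11 features opposite 5 fell, and 0 rose in either, with 2 of the 5 called without experiment A or without C. SSPN, whose exons overlap the repressor gene BHLHE41, had 104, 62.1 and 114 CPM in Arrested and 47.4, 35.2 and 40.4 in 4h_DMSO (-1.18 ± 0.17, adjusted p = 2.74e-08), a call kept in 9 of 9 refits. UTS2, which overlaps the clock gene PER3, had 51.6, 58.7 and 63 CPM and then 31.9, 34.2 and 20.7 (-1.03 ± 0.20, adjusted p = 9.42e-05, but 0.083 without the block and 0.0741 without experiment C). THRA, a thyroid hormone receptor gene that overlaps NR1D1, the repressor REV-ERB alpha, fell by 1.01 ± 0.24 (adjusted p = 0.00266, but 0.109 without the block and 0.052 without A). NR1D2, its relative REV-ERB beta, had 14.2, 8.95 and 7.11 CPM and then 3.99, 3.47 and 0.98 (-1.81 ± 0.48, adjusted p = 0.00947, and 0.0779 without the block), a call that ended in 4 refits. Medium change can reset the clock of cultured cells, and the part of the wash in these values was not tested.

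The mitochondrial genome is transcribed from both strands as long precursors, and MT-ND6 is the only protein gene of its light strand. Of 15 rRNA and protein genes measured, 7 rose and 1 fell, with a median of 1.11, and 14 had a positive fold change. Without the block 2 rose and 1 fell. MT-ND5, a subunit of respiratory complex I, had 7728, 4116 and 6739 CPM in Arrested and 16570, 8785 and 16110 in 4h_DMSO (1.15 ± 0.08, adjusted p = 2.74e-28, and 0.0666 without the block). MT-ND1 had 507, 274 and 384 CPM and then 1011, 695 and 934 (1.19 ± 0.12, adjusted p = 8.34e-10), and MT-ND2 rose by 1.06 ± 0.09 (adjusted p = 3.44e-20). MT-ND6 had 19200, 15010 and 18790 CPM and then 12030, 9705 and 10710 (-0.71 ± 0.07, adjusted p = 1.92e-14). The groups of MT-ND1, MT-ND2, MT-ND5 and MT-ND6 did not overlap, and each of these calls was kept in 9 of 9 refits. The share of mitochondrial counts was 3.16% to 4.29% in Arrested and 3.59% to 5.79% in 4h_DMSO, higher in each experiment. MT-CO2, MT-ND4 and MT-CYB were higher in all 3 experiments too and were not called (adjusted p = 0.0641, 0.157 and 0.179). Because counts here lie mostly on opposite strands, which strand of the mitochondrial genome these features report is uncertain.

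**Figure D4:**
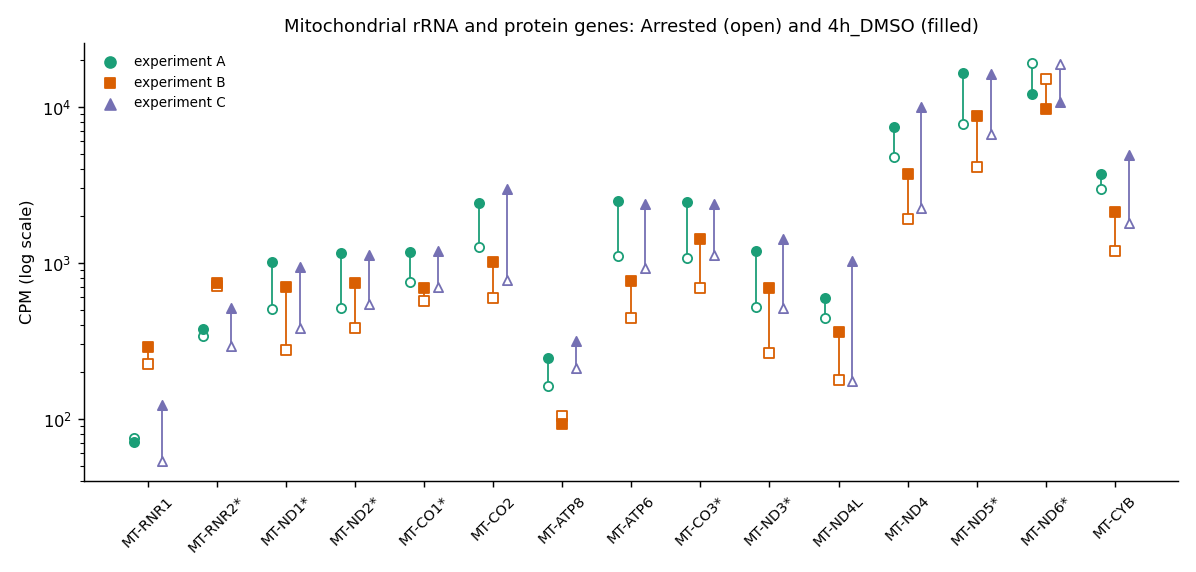
For each mitochondrial rRNA and protein gene in genome order, open markers give CPM (log scale) in Arrested and filled ones in 4h_DMSO, joined within an experiment (A, B and C from left to right). Asterisks mark adjusted p under 0.05. MT-ND6 is the only gene that fell in all 3 experiments.

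Of 8 interferon genes measured 2 fell and 0 rose, with a median of -0.66 and 1 of 8 fold changes positive. IFIT3, an interferon-induced antiviral protein, had 16.6, 9.94 and 12.7 CPM in Arrested and 5.99, 4.46 and 4.92 in 4h_DMSO (-1.34 ± 0.40, adjusted p = 0.0283, and 0.164 without the block). Its groups were apart, but the call ended in 8 of 9 refits.

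The remaining lists held few calls. SLC7A5, a subunit of the leucine transporter, with AC126696.2 opposite, rose from 83.1, 81 and 59.4 CPM to 133, 144 and 202 (1.08 ± 0.17, adjusted p = 2.66e-05), and its partner SLC3A2 by 1.00 ± 0.24 (adjusted p = 0.00265, but 0.129 without the block and 0.134 without experiment C, ended in 2 refits). These were the 2 that rose of 31 ATF4 and unfolded protein response genes, and DDIT4 fell. Of 20 heat shock genes 2 rose and of 33 ribosome biogenesis genes 3 rose (0 without experiment A), with 0 in the other direction. Neither the 26 glycolysis and hypoxia genes nor the 18 cholesterol genes had an own feature called with edgeR or DESeq2 (with an unadjusted p under 0.05, 6 fold changes were above and 0 below 0 in the first, and 0 and 1 in the other), and 1 feature opposite fell in each. Homologous recombination had 1 of 24 own features higher and 2 of 15 opposite lower. A panel of 52 marker genes had 47 tested, of which 12 rose, 5 fell and 30 were not called, with fold changes from -0.86 to 0.94.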

How the data were processed

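RNA was sequenced from 17 RPE-1 libraries, of which 6 are compared here. The deposited table gives raw counts per gene ID. Per the submitters' processing notes the authors used TopHat, HTSeq and DESeq2 with GRCh37, with versions, annotation and strand setting not given in the sources used here. The authors' comparison table holds log2 fold changes and adjusted p-values, deposited without replicate values. Its column name does not state the direction. Its fold changes correlated at -0.925 with those here, so they were read as arrest minus 4 h and their sign was turned. Letters A, B and C in the column names were read as experiments.

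Counts were tested with edgeR 4.0.16 (TMM, filterByExpr at minimum count 10 and minimum total 15, robust glmQLFit, glmQLFTest) over all 17 libraries, those with the inhibitor included. The experiment letter was a block because the comparison is paired by letter, and same-letter deviations correlated at 0.203 (A), 0.493 (B) and 0.142 (C). Calls are Benjamini-Hochberg adjusted p-values under 0.05 over 13510 of 60252 IDs. CPM values of single features are counts scaled to 1000000 per library, with library size taken over the tested features and adjusted by TMM. Summed levels of cell type markers were scaled to the total counts instead. Standard errors were derived as the absolute log2 fold change divided by the square root of the F statistic of glmQLFTest. DESeq2 1.42.0 and limma 3.58.1 served as alternatives. The edgeR fit was tested on simulated data. Symbols (55951 IDs) and overlaps came from GENCODE v29 on GRCh38, used without coordinates.

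The members and gene lists were chosen with earlier results of these data known. Named are the 12 largest rises and falls at a mean of at least 5 CPM with 1 sign in all experiments, up to 6 called features of each list and kind by adjusted p, and a panel of 52 genes. Further actin genes, mitochondrial genes, BORA, LIF and COL1A1 were named after their values were seen, as was the promoter start that holds a CArG box. Alternatives were the fit without the block, the 6 libraries alone, other scaling, filters and tools, features without overlap, and refits without each library or experiment. A 6 h inhibitor library of experiment C is not among the 17 and is not analysed here. A few genes of these lists are not reported here.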

Additional observations from a re-analysis of the deposited data

How the results depend on the processing

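The direction of the called features named with values was kept under every alternative run. BORA, which was not called, had a fold change of 0.03, and from -0.10 to 0.19 in the leave-out fits, with -0.10 without experiment A, with -0.05 and -0.03 without the 4h_DMSO libraries of A and C and -0.01 and -0.04 without the Arrested libraries of A and B. Without the replicate block, 304 features higher and 340 lower became 56 and 44, the later step to 6 h went from 88 and 53 to 9 and 2, and arrest against cycling cells from 379 and 383 to 81 and 58. Without the block 30 features named with values lost the call. The 78 so named include some not called in the main fit, such as THBS1, TOP2A and BORA. The share lost among called features is therefore larger than 30 of 78. Same-letter libraries correlated in their deviations in all 3 experiments, though A correlated more with C (0.262) than with itself (0.203). With features that overlap no gene on the other strand alone, scaled and adjusted by themselves, there were 58 higher and 38 lower, against 118 and 39 of these features when all were fitted. Without the block and without experiment B, a choice made after seeing the data, 231 were higher and 187 lower. Leaving out libraries or experiments gave 141 to 333 higher and 101 to 325 lower. For the step to 6 h leaving out experiments gave 28 to 82 higher and 10 to 44 lower, and for arrest against cycling cells 207 to 278 and 143 to 282. The cause of these differences was not tested. DESeq2 gave 262 and 271, limma voom 285 and 332, and the 6 libraries alone 298 and 332. With 1758747 to 2188389 counts per library, features near the filter rest on few counts, and 3 libraries per condition limit what can be called.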
